A study of Mus musculus with 7 samples.

Results

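The muscle genes Ttn, Neb, Ryr1, Dmd, Utrn and Cacna1s were followed probe set by probe set in quadriceps femoris of mice that overexpress mutant Twinkle and of wild-type mice. They were chosen by symbol, as every probe set that the platform annotation gives to 1 of these 6 genes, which made 17 of the 45101 probe sets and 6 of the 18193 genes. Twinkle is the helicase of mitochondrial DNA replication, and the mutant line is a mouse model of progressive external ophthalmoplegia, a mitochondrial muscle disease. There were 3 mutant mice, aged 24, 24 and 21 months, and 4 wild-type mice, aged 26, 24, 21 and 23 months, called biological replicates in the titles, with 1 array for each. The promoter of the transgene, the mouse strain and the sex are not given in the sources used here, and the groups share no other stated treatment. The titles, source and tissue entries name this muscle while the sample descriptions name cerebellum.

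All 6 genes encode large proteins found in the muscle fibre from long transcripts, whose lengths were not analysed here. Titin (Ttn) is the spring that spans the sarcomere from Z-disc to M-band, and nebulin (Neb) runs along the thin filament. The calcium channel subunit Cacna1s senses the voltage of the transverse tubule and opens the ryanodine receptor Ryr1, which releases calcium from the sarcoplasmic reticulum. Dystrophin (Dmd) ties the actin cytoskeleton to the membrane complex, and its relative utrophin (Utrn) is found mainly at the neuromuscular junction of adult fibres. A microarray reads a transcript through several probe sets, each a group of short oligonucleotides drawn from a different stretch or a different clone, so a long gene can be read at several places.

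Each value is a log2 signal relative to that probe set's own median over the 7 arrays, so 0 is the middle array and no value is a level. A rough level class was recovered from the spacing of the deposited single-precision numbers. Of the 17 probe sets, 9 lay in the class from 8 to 16 on the log2 scale (5 of Ttn, 2 of Ryr1, 1 each of Neb and Cacna1s), 5 in the class from 4 to 8 (3 of Dmd and 2 of Utrn) and 3 in the class from 2 to 4 (1 each of Ttn, Dmd and Utrn). The muscle fibre markers, 11 in all, were every one in that top class. Of the 8 cerebellum markers measured of 10, 1 lay there, the myelin gene Mbp, and the Purkinje and granule cell markers Pcp2, Calb1 and Gabra6 lay in lower classes.

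Wild-type replicate 3 stood apart from the other arrays before any comparison of genotypes. It was the lowest of the 7 arrays in 14 of the 17 probe sets, where 16.1% of all 45037 probe sets fitted have it as the lowest, and the mean over the 17 was -0.85 there against -0.11 to 0.20 in the other 6 arrays. In the highest class it was lowest in 9 of 9, against 24.1% of all probe sets of that class. This array was at or below -0.5 in 12 of the 17 (5.3% of all) and in all 9 of the highest class (12.3%), a limit chosen after the values were seen. Several of these probe sets belong to the same gene, so these counts are not of separate results. By gene value, wild-type replicate 3 was lowest in 5 of the 6 genes, against 15.1% of all genes. RNA quality controls compare the 5 prime with the 3 prime end of a transcript, and for Gapdh this contrast (5 prime minus 3 prime) stood at -0.55 in that array against -0.040 to 0.094 in the other 6. That of the beta-actin control was 0.12 there, against -0.14 to 0.12, and that of the transferrin receptor control -0.036, against -0.11 to 0.28. The mean of the 11 muscle fibre markers was -0.41 in this array against -0.14 to 0.15 in the others, with this array lowest for 8 of the 11, and the means of 7 fibroblast markers (0.98 against -0.30 to 0.43) and 7 leukocyte markers (0.78 against -0.56 to 0.29) were highest. The means of 6 adipocyte markers (0.91 against -0.91 to 0.50) and 3 nerve markers (0.34 against -0.37 to 0.13) were highest there too, and those of 6 endothelial (-0.0014) and 3 erythroid markers (0.10) were not. The mean of the 9 slow fibre markers was also highest in this array, at 0.73, but nearly as high in wild-type replicate 4, at 0.57. It was -0.10 to 0.26 in the mutant arrays and lowest in wild-type replicates 1 and 2, at -3.58 and -2.17. The part of RNA quality, cell makeup and fibre type in the members' values was not tested, and in whole muscle fewer fibres and less RNA per fibre cannot be told apart. Mutant replicate 1 had the highest 18S control mean, 3.19 against -0.77 to 0.56 in the other 6 arrays.

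**Figure D1:**
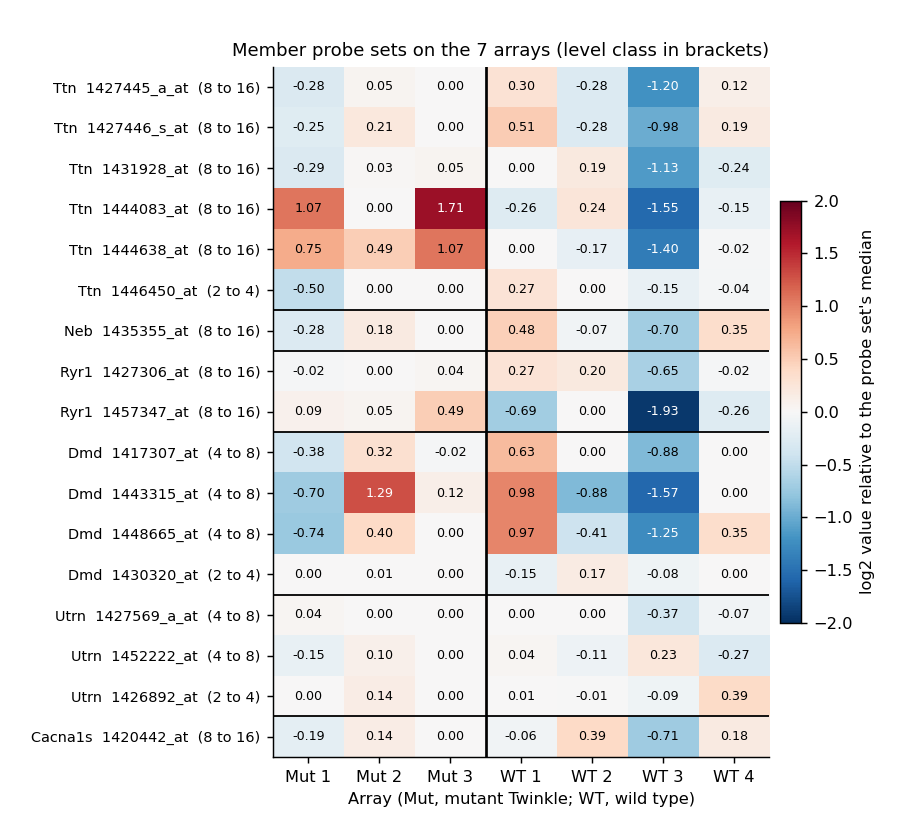
Heat map of the 17 member probe sets (rows, with the log2 level class in brackets) on the 7 arrays (columns); colour and printed number give the log2 value relative to the probe set's median. Wild-type replicate 3 is the lowest array in 14 of the 17 rows, and Ttn 1444083_at and 1444638_at are high in mutant replicates 1 and 3.

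**Figure D2:**
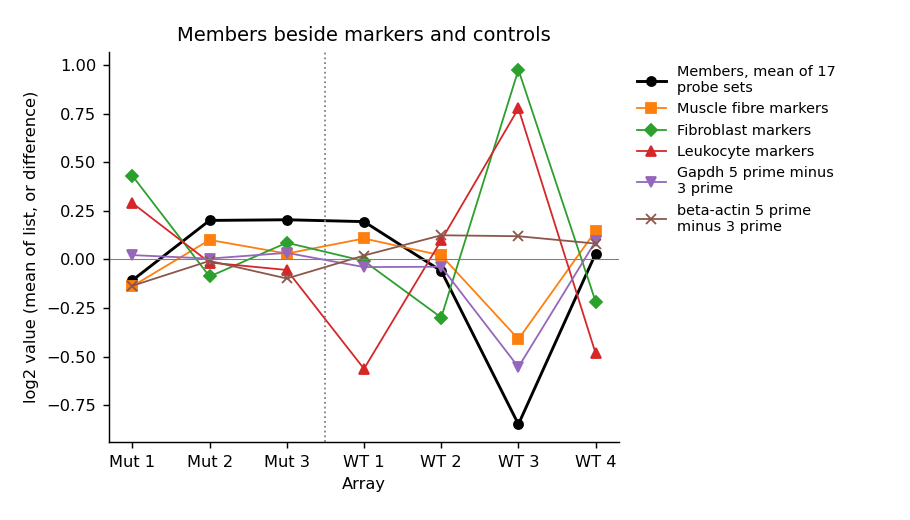
Mean log2 value of the 17 member probe sets, of 3 marker lists and the 5 prime minus 3 prime value of 2 control genes on each array; lines only link the points of a series, and the dotted line parts mutant from wild-type arrays. In wild-type replicate 3 the member mean (-0.85), the muscle fibre mean (-0.41) and the Gapdh value (-0.55) are low while the fibroblast (0.98) and leukocyte (0.78) means are high.

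No member passed the threshold between the genotypes, and the largest differences were on 3 probe sets of Ttn and Ryr1. With limma's moderated test over 45037 probe sets, 0 of the 17 had an adjusted p under 0.05, where 0.0% of all probe sets did in either direction, and the adjusted p was 1.00 for all 17. At an unadjusted p under 0.05, 2 of the 17 were higher in mutant muscle (1.19% of all probe sets) and 0 were lower (0.782%). Both are probe sets of Ttn, 1444083_at and 1444638_at, with r = 0.93 between them, so they are not separate results. The 3 mutant values were all higher than the 4 wild-type values in 2 of the 17 probe sets (1.06% of all), Ttn 1444638_at and Ryr1 1457347_at, and all lower in 0 (1.02%). Leaving out arrays cannot make these 2 overlap, so it does not test them. No other member probe set joined them without wild-type replicate 3, mutant replicate 1 or both. The share of all probe sets with the mutant arrays above was then 2.08%, 3.81% and 5.33%. By gene, averaging the probe sets that share its top class, the difference was 0.61 ± 0.33 (SE) for Ttn, -0.05 ± 0.28 for Neb, 0.49 ± 0.31 for Ryr1, 0.03 ± 0.25 for Cacna1s, 0.20 ± 0.50 for Dmd and 0.07 ± 0.08 for Utrn, and limma called 0 of the 6 over 18193 genes (0.0% of all; adjusted p = 1.00 for each). At an unadjusted p under 0.05 there were 0 of 6 in either direction (0.737% of all genes higher, 0.654% lower), and the mutant arrays lay above the wild-type ones in 1 of 6, Ttn (0.846% of all genes), and below in 0 (1.18%). Without wild-type replicate 3 these became 0.30, -0.29, 0.19, -0.18, -0.15 and 0.06. Beside these, all 9 slow fibre markers had a positive difference, with a median of 1.31 and 0 called, and their mean was -0.10 to 0.26 in the mutant arrays and -3.58 to 0.73 in the wild-type arrays.

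**Figure D3:**
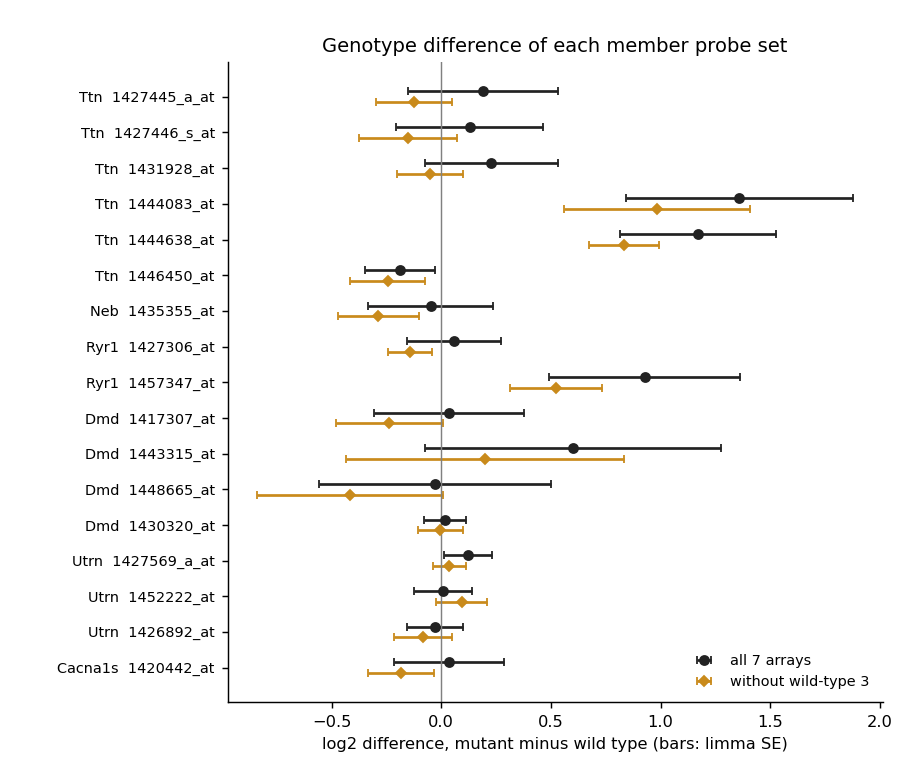
Log2 difference, mutant minus wild type, of each member probe set with limma's standard error, for all 7 arrays (circles) and without wild-type replicate 3 (diamonds). Ttn 1444083_at, Ttn 1444638_at and Ryr1 1457347_at lie at 1.36, 1.17 and 0.93 with all arrays and at 0.99, 0.83 and 0.52 without that array.

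The 6 probe sets of titin gave differences between -0.19 and 0.23 on 4 and above 1 log2 unit on the other 2, although none passed the threshold. The probe sets 1427445_a_at and 1427446_s_at, both listed with a cDNA clone as target, rose and fell over the arrays in nearly the same order. On 1427445_a_at mutant replicates 1 to 3 measured -0.28, 0.05 and 0.00 and wild-type replicates 1 to 4 0.30, -0.28, -1.20 and 0.12. On 1427446_s_at they measured -0.25, 0.21 and 0.00, and 0.51, -0.28, -0.98 and 0.19. Wild-type replicate 3 was lowest and wild-type replicate 1 highest on both, and the mutant arrays lay within the wild-type range. The differences were 0.19 ± 0.34 (SE) and 0.13 ± 0.34 with all arrays, and -0.12 and -0.15 without wild-type replicate 3. The probe set 1431928_at was similar, with -0.29, 0.03 and 0.05 in mutant and 0.00, 0.19, -1.13 and -0.24 in wild-type arrays, a difference of 0.23 ± 0.30 that turned to -0.05 without that array.

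The other pair of bright titin probe sets followed the genotype more closely. On 1444083_at, whose listed target is an expressed sequence tag, mutant replicates 1 to 3 measured 1.07, 0.00 and 1.71 and wild-type replicates 1 to 4 -0.26, 0.24, -1.55 and -0.15. Mutant replicates 1 and 3 lay above every wild-type array, and mutant replicate 2 did not. The group means were 0.93 ± 0.87 (SD, n = 3) for mutant and -0.43 ± 0.78 (SD, n = 4) for wild-type mice, a log2 difference of 1.36 ± 0.52 (SE) or 2.56-fold (limma, unadjusted p = 0.0331, adjusted p = 1.00). On 1444638_at mutant replicates 1 to 3 measured 0.75, 0.49 and 1.07 and wild-type replicates 1 to 4 0.00, -0.17, -1.40 and -0.02. Here the groups did not overlap, and mutant replicate 3 was highest and wild-type replicate 3 lowest, as on 1444083_at. The mean was 0.77 ± 0.29 (SD, n = 3) against -0.40 ± 0.67 (SD, n = 4), a difference of 1.17 ± 0.36 (SE) or 2.25-fold (limma, unadjusted p = 0.0126, adjusted p = 1.00). Over leaving out each array in turn, the difference ran from 0.96 to 1.82 on 1444083_at and from 0.83 to 1.31 on 1444638_at. The sixth probe set, 1446450_at, in the lowest class and also targeted at an expressed sequence tag, measured -0.50, 0.00 and 0.00 in mutant and 0.27, 0.00, -0.15 and -0.04 in wild-type arrays, a difference of -0.19 ± 0.16. It was 1 of the 3 member probe sets in which wild-type replicate 3 was not the lowest array.

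Each probe set was also set against the mean of its gene's other probe sets within each array. This did not take out wild-type replicate 3, which was still the lowest array in 7 of 15 members (18.5% of all probe sets compared). By this measure 1444638_at stood at 0.80, 0.43 and 0.72 in mutant mice, against -0.16, -0.14, -0.40 and 0.00 in wild-type mice. The groups did not overlap, and the difference was 0.83 ± 0.15 (SE; unadjusted p = 0.00047). For 1444083_at it was 1.05 ± 0.38 with overlap, since mutant replicate 2 stood at -0.16 and wild-type replicate 2 at 0.34 (unadjusted p = 0.0223). The dim 1446450_at, which differed by only -0.19 itself and so mirrors the probe sets subtracted from it, stood at -0.70, -0.16 and -0.57 in mutant and 0.16, 0.06, 1.11 and -0.02 in wild-type arrays, a difference of -0.80 ± 0.28 (unadjusted p = 0.0181) that became -0.49 against the median of the others. Against that median 1444638_at and 1444083_at stood at 1.03 and 1.17. In limma's fit over 25762 probe sets of genes with more than 1 probe set, 0 of the 15 members had an adjusted p under 0.05 (0.0% of all; adjusted p = 1.00 for each). At an unadjusted p under 0.05 there were 3 of 15 higher in mutant (1.3% of all) and 2 lower (1.02%), and these 5 were the 3 titin probe sets above and both probe sets of Ryr1. The groups did not overlap in 2 of 15 with the mutant arrays above (2.04% of all), 1444638_at and Ryr1 1457347_at. They did not overlap in 2 with the mutant arrays below (1.92%), 1446450_at and Ryr1 1427306_at. By this measure the 2 Ryr1 probe sets are exact mirrors, so 1 contrast enters these counts both as higher and as lower. The counts are therefore not of separate results. Without wild-type replicate 3 the differences for 1444638_at, 1444083_at and 1446450_at were 0.75, 0.93 and -0.54.

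Over the 7 arrays 2 of the pairs of titin probe sets had an r above 0.9. These were 2 of the 11 member pairs within the class from 8 to 16, where 22.4% of the 1633 pairs of probe sets of 1 gene have an r above 0.9 and the median r is 0.65, so the count is near the background. Between 1427445_a_at and 1427446_s_at Pearson's r was 0.98 (exact permutation p = 0.000794, adjusted p = 0.00992 over the 25 pairs of probe sets of 1 member gene) and Spearman's rho 0.93 (permutation p = 0.00675, adjusted p = 0.0844). Without the 2 arrays farthest from the median, r was 0.97. Between 1444083_at and 1444638_at r was 0.93 (exact permutation p = 0.00278, adjusted p = 0.0232) and rho 0.75 (permutation p = 0.0663, adjusted p = 0.332), and r was 0.69 without the 2 farthest arrays. By rank this pair was close to that of 1446450_at with 1427445_a_at or 1431928_at, both at rho 0.70 (permutation p = 0.1, adjusted p = 0.357). Of the 25 pairs, 5 passed after adjustment with all arrays, but 0 without wild-type replicate 3 or any 1 mutant array and 3 without any other wild-type array. No share of passing pairs over all genes is given here, so this count is not a result about the members. The test is against no relation, while pairs of probe sets of 1 gene are often alike. Their median r over all genes was 0.65 in the class from 8 to 16 and 0.32 in the class from 4 to 8. An r above 0.9 was found in 22.4% of all pairs in the class from 8 to 16 and in 6.12% in the class from 4 to 8. Across these 2 titin pairs the 4 values of r were 0.38, 0.52, 0.60 and 0.70 (exact permutation p from 0.109 to 0.405, adjusted p from 0.283 to 0.533), with rho from -0.14 to 0.43 and r from -0.38 to 0.06 without the 2 farthest arrays. The spread of the genotype difference over the 6 probe sets was 1.55 log2 units, from -0.19 to 1.36, where the 244 genes with 6 probe sets have a median spread of 0.37 and 2 of them, Ttn included, reach 1.55. Array by array, the 6 probe sets of Ttn spanned 1.71 in mutant replicate 3, 1.57 in mutant replicate 1 and 0.49 in mutant replicate 2, and 0.43 to 1.41 in the wild-type arrays.

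**Figure D4:**
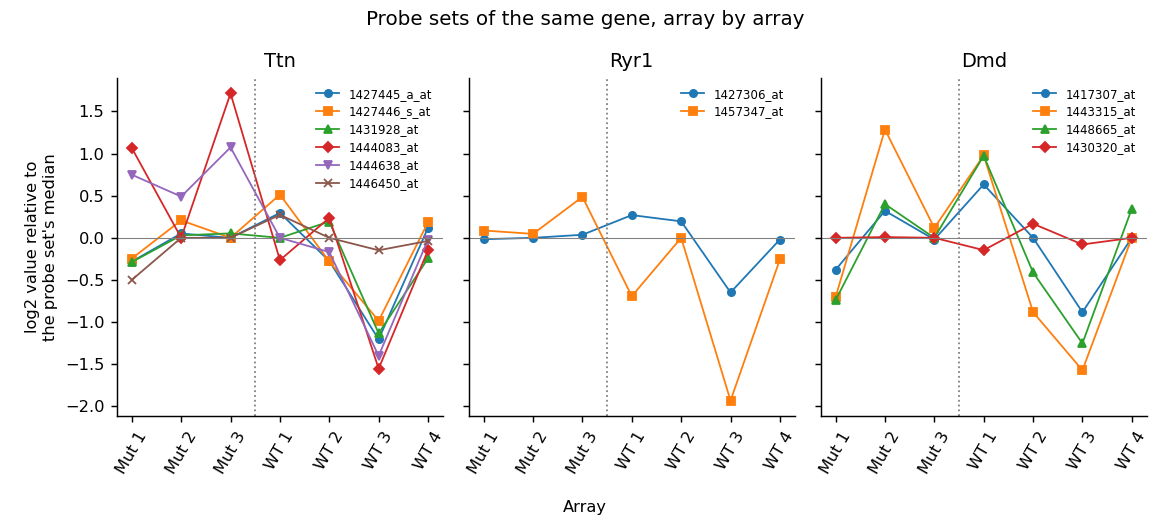
Log2 value relative to the median of every probe set of Ttn, Ryr1 and Dmd on the 7 arrays; lines only link the points of a probe set, and the dotted line parts mutant from wild-type arrays. In mutant replicate 3 Ttn 1444083_at stands at 1.71 while 1427446_s_at stands at 0.00, and the Dmd probe set 1430320_at stays between -0.15 and 0.17 while the other 3 move together.

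The start region of Ttn is shown because its 6 probe sets spanned the widest range of differences among the members, although Ryr1 stood further out among genes with as many probe sets. The window runs from 250 bases before to 50 after the annotated start, read 5′ to 3′ from the RefSeq table of GRCm38.p6, with motif matches in capitals:
Ttn, chr2:76982498-76982797, minus strand: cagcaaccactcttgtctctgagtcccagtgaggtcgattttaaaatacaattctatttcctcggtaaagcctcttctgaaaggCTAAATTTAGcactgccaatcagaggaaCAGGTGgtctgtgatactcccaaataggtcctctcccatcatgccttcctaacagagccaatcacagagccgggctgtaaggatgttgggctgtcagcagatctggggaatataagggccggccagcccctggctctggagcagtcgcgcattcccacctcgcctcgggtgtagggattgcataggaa
The motifs searched on both strands were the E-box CANNTG, bound by myogenic factors, the TATA box TATAAA, and the MEF2 site and CArG box of muscle promoters. The Ttn window held 1 MEF2 match, at bases 85 to 94 of the window, and 1 E-box. Of 32851 windows of this length, 1.86% held a MEF2 match, 1.63% a CArG box, 13.6% a TATA box and 72.3% an E-box. A match describes these letters and shows no binding.

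Nebulin was read by 1 probe set, 1435355_at, and showed no genotype difference beyond its error. Mutant mice measured -0.28, 0.18 and 0.00 on it, and wild-type mice 0.48, -0.07, -0.70 and 0.35. The mutant values lay inside the wild-type range, which wild-type replicates 1 and 3 bound. The difference was -0.05 ± 0.28 (SE), and it ran from -0.29 to 0.11 when each array was left out in turn.

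Ryr1 was read by 2 bright probe sets that gave different genotype differences. On 1427306_at, listed with a GenBank entry as its target, mutant replicates 1 to 3 measured -0.02, 0.00 and 0.04 and wild-type replicates 1 to 4 0.27, 0.20, -0.65 and -0.02. The mutant arrays lay close together inside the wild-type range, and the difference was 0.06 ± 0.22 (SE), or -0.14 without wild-type replicate 3. On 1457347_at, whose target is an expressed sequence tag, mutant replicates 1 to 3 measured 0.09, 0.05 and 0.49 and wild-type replicates 1 to 4 -0.69, 0.00, -1.93 and -0.26. The groups did not overlap, since the lowest mutant array (0.05) lay above the highest wild-type array (0.00), and mutant replicate 3 was highest and wild-type replicate 3 lowest, as on the titin probe sets 1444083_at and 1444638_at. The mean was 0.21 ± 0.24 (SD, n = 3) against -0.72 ± 0.86 (SD, n = 4), a difference of 0.93 ± 0.44 (SE) or 1.90-fold (limma, unadjusted p = 0.0692, adjusted p = 1.00).

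Within each array, 1457347_at minus 1427306_at was 0.10, 0.05 and 0.45 in mutant and -0.96, -0.20, -1.28 and -0.24 in wild-type muscle. The groups did not overlap, and the difference between genotypes was 0.87 ± 0.28 (SE; limma, unadjusted p = 0.0119, adjusted p = 1.00), and 0.66 without wild-type replicate 3. This is the test of unequal change of the 2 probe sets, and it did not pass the threshold. Of 4695 genes with 2 probe sets, whose median spread of the difference was 0.12, 11 (0.234%) had a spread at least as large as the 0.87 of Ryr1. Over the 7 arrays the 2 probe sets gave r = 0.73 (exact permutation p = 0.125, adjusted p = 0.283) and rho = 0.21 (permutation p = 0.662, adjusted p = 0.974), and r fell to 0.07 without the 2 farthest arrays.

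Cacna1s, the channel that gates Ryr1, was read by 1 probe set, 1420442_at. Mutant mice measured -0.19, 0.14 and 0.00 on it, and wild-type mice -0.06, 0.39, -0.71 and 0.18. The mutant values lay inside the wild-type range, and the difference of 0.03 ± 0.25 (SE) turned to -0.18 without wild-type replicate 3 and to -0.07 with quantile normalization.

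Dystrophin showed large swings between arrays that did not follow the genotype. The probe set 1448665_at, targeted at the RefSeq mRNA, measured -0.74, 0.40 and 0.00 in mutant and 0.97, -0.41, -1.25 and 0.35 in wild-type arrays. On 1417307_at, with the same listed target, the arrays measured -0.38, 0.32 and -0.02, and 0.63, 0.00, -0.88 and 0.00. On 1443315_at, targeted at an expressed sequence tag, they measured -0.70, 1.29 and 0.12, and 0.98, -0.88, -1.57 and 0.00. In all 3, wild-type replicate 3 was lowest, mutant replicate 1 was the lowest mutant array, and mutant replicate 2 and wild-type replicate 1 were the highest of their groups. The differences were -0.03 ± 0.53 (SE), 0.04 ± 0.34 and 0.60 ± 0.68, and that of 1443315_at was 0.08 without mutant replicate 2.

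These 3 probe sets ordered the arrays alike, and the fourth did not. Between them r was 0.95 for 1417307_at with 1448665_at (exact permutation p = 0.000794, adjusted p = 0.00992), 0.91 for 1443315_at with 1448665_at (p = 0.00536, adjusted p = 0.0335) and 0.89 for 1417307_at with 1443315_at (p = 0.00833, adjusted p = 0.0417). The matching rho values were 0.94, 0.89 and 0.76 (permutation p = 0.00476, 0.0123 and 0.0571, adjusted p = 0.0844, 0.103 and 0.332). Without the 2 farthest arrays r was 0.83, 0.94 and 0.79, and these 3 pairs are among the 5 of 25 that passed, of which 0 did so without wild-type replicate 3 or any 1 mutant array. No share of passing pairs over all genes is given, so their passing is not a result about dystrophin. Among all pairs of probe sets of 1 gene in the class from 4 to 8, the median r was 0.32, and 6.12% of the 7041 pairs had an r above 0.9. The dim probe set 1430320_at, targeted at a cDNA clone, measured 0.00, 0.01 and 0.00 in mutant and -0.15, 0.17, -0.08 and 0.00 in wild-type arrays. Its r to the other 3 ran from -0.27 to -0.08 (permutation p from 0.575 to 0.887). Its range over the 7 arrays was 0.31 log2 units, against 1.52, 2.23 and 2.86 for 1417307_at, 1448665_at and 1443315_at.

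The RefSeq table holds 2 starts of Dmd on chromosome X, which are shown because dystrophin is made from several promoters and its probe sets did not all move together. The windows are from GRCm38.p6, read 5′ to 3′, with motif matches in capitals:
Dmd, upstream start, chrX:82948620-82948919, plus strand: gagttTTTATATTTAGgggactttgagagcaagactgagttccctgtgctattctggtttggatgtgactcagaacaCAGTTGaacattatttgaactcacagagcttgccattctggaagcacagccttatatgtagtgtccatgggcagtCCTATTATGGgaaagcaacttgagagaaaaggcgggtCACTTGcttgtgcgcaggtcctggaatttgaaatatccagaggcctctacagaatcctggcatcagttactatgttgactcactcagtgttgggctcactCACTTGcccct
Dmd, downstream start, chrX:85048045-85048344, plus strand: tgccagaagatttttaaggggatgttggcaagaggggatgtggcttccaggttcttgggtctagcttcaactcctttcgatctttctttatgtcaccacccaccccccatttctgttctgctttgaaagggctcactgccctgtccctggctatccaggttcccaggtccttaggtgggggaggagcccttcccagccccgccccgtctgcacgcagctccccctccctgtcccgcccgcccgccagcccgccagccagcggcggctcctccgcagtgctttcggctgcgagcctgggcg
The upstream window held 1 MEF2 match that overlaps 1 TATA box match, 1 CArG box and 3 E-boxes, and its GC share was 45.7%. The downstream window held 0 matches to these 4 motifs, at a GC share of 62.7%. Which start each probe set reads was not analysed here.

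By gene value, utrophin varied least of the members over the 7 arrays. On 1427569_a_at mutant replicates 1 to 3 measured 0.04, 0.00 and 0.00 and wild-type replicates 1 to 4 0.00, 0.00, -0.37 and -0.07. On 1452222_at they measured -0.15, 0.10 and 0.00, and 0.04, -0.11, 0.23 and -0.27, so wild-type replicate 3 was highest there and lowest on the other probe set of the same class. On the dim 1426892_at they measured 0.00, 0.14 and 0.00, and 0.01, -0.01, -0.09 and 0.39. The groups overlapped on all 3, and the differences were 0.12 ± 0.11 (SE), 0.01 ± 0.13 and -0.03 ± 0.13. The spread between these differences was 0.15, and 70.1% of the 2366 genes with 3 probe sets had a spread at least as large. The Utrn gene value ranged over 0.22 log2 units across the arrays, against 2.10 for Dmd. It averages 1427569_a_at and 1452222_at, which ranged over 0.41 and 0.50 with an r of -0.58 (exact permutation p = 0.214), so their mean varied less than either. The probe sets averaged for Dmd moved together. Between the gene values of Utrn and Dmd r was 0.47 (exact permutation p = 0.289, adjusted p = 0.394 over the 15 pairs of members; rho 0.61, permutation p = 0.167, adjusted p = 0.743), or 0.36 without the 2 farthest arrays. The RefSeq window at the start of Utrn, shown beside those of its relative Dmd, held 7 E-boxes (in capitals, with 1 overlapping pair) and 0 matches to the other motifs, at GRCm38.p6 and read 5′ to 3′:
Utrn, chr10:12861686-12861985, minus strand: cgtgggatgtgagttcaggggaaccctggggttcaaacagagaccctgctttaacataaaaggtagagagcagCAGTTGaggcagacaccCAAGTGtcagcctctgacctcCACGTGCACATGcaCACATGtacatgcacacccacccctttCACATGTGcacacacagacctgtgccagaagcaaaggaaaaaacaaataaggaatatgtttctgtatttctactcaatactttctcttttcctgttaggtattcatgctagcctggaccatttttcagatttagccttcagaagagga

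Among the 15 pairs of member genes, Neb and Dmd ordered the arrays most alike. Their r was 0.93 (exact permutation p = 0.00357, adjusted p = 0.0536) and rho 0.96 (permutation p = 0.00278, adjusted p = 0.0417), and r was 0.76 without the 2 arrays farthest from the median. Ttn and Ryr1 had r = 0.96 (exact permutation p = 0.0127, adjusted p = 0.0953), but rho was 0.61 (permutation p = 0.167, adjusted p = 0.743) and r was -0.0045 without the 2 farthest arrays, so that relation rested on them. Some arrays that were alike in Dmd and Neb also deviated alike over all 45037 probe sets, which are not independent. The deviations of mutant replicate 2 and wild-type replicate 1, the highest of their groups in both genes, from their group means had r = 0.54. Those of mutant replicate 1 and wild-type replicate 3, the lowest of their groups, had r = 0.49. These were the highest values for any mutant with any wild-type array, and the others ran from -0.49 to 0.40. Deviations from a group mean sum to 0, so some positive r must arise, and a link to Dmd and Neb was not tested.

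Genes of the highest class whose values were most like a member's over the 7 arrays were searched among 4274 genes, and are given as a description. For Ttn these were Rgs5 (r = 0.99), Orc6 (0.99) and Mxd4 (0.99), for Neb Ppp1cb (0.99), a catalytic subunit of protein phosphatase 1, Atxn1 (0.98) and Vezf1 (0.98), and for Dmd the RNA D830012I24Rik (0.99), the splicing factor Sf3b1 (0.99) and the insulin receptor Insr (0.99). For Ryr1 these were the muscle transcription factor Mef2c (0.99), B4galt3 (0.98) and the spectrin gene Sptb (0.98), and for Cacna1s Rtn2 (0.99), the dynactin subunit Dctn1 (0.99) and Paip2b (0.97). In all 15 of these wild-type replicate 3 was the lowest array (15.1% of all genes). For Utrn they were Nhp2 (0.91), Zeb1 (0.90) and Parm1 (0.89), with wild-type replicate 4 lowest in all 3 (10.1% of all genes). The genes were picked for a high r to a member, so sharing the member's lowest array follows from that choice. Whether values of r this high exceed those of a search over 4274 genes and 7 arrays by chance was not tested.

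The partners of these proteins gave no called gene. Of 29 measured of 32 sarcomere partners of titin and nebulin, 18 had a positive and 11 a negative difference, limma called 0, and the median was 0.03 against -0.01 over all 18193 genes. The smallest p-values were those of Lmod3, a thin filament nucleator (0.20 ± 0.10, SE), Ankrd1, a stretch-responsive titin partner (0.82 ± 0.59), and Lmod2 (-0.21 ± 0.16), with overlapping groups in all 3. Wild-type replicate 3 was the lowest array in 17 of these 29 genes, where 15.1% of all genes have it as the lowest. Of the 29, 25 were in the class from 8 to 16, where it is lowest in 24.1% of all probe sets. Of 24 measured of 26 genes of excitation-contraction coupling (21 in that class), 18 were positive and 6 negative with a median of 0.12 and 0 called, and wild-type replicate 3 was lowest in 10. They were led by the triad protein Jsrp1 (0.21 ± 0.12), the channel subunit Cacnb1 (0.31 ± 0.20) and Asph (0.23 ± 0.17). Of 18 measured of 20 genes of the dystrophin and utrophin complex (9 in the class from 8 to 16), 13 were positive and 5 negative with a median of 0.05 and 0 called, and wild-type replicate 3 was lowest in 6. Ank3, an ankyrin of the membrane skeleton, differed by 0.36 ± 0.17, the sarcospan gene Sspn by 0.19 ± 0.13 and Agrn, the synaptic organiser agrin, by -0.17 ± 0.13. The corresponding adjusted p in limma was 1.00 for each gene named.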

How the data were processed

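Total RNA of quadriceps femoris was extracted with Trizol and labelled with biotin on Affymetrix arrays, per the labels' protocols. The authors deposited 1 table of log2 values for 45101 probe sets on 7 arrays. GCOS 4.0 is named in the submitters' processing notes. The way that probes were summarised, scaled and centred was not given in the sources used here. The median over the arrays was exactly 0 in all 45101 probe sets, so the values hold differences only, and the log base was read from the number spacing. This spacing put 14.1% of probe sets between 8 and 16 on the log2 scale, 40.1% between 4 and 8 and 45.8% between 2 and 4 (9 unresolved), using arrays above the median array or at most 0.25 below it. In 25454 probe sets more than 1 array stood exactly at the median.

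Symbols came from the platform annotation, updated by Entrez identifier from a RefSeq table of GRCm38.p6 (34741 of 34945 probe sets with 1 symbol matched, 932 had several). The kind of target named for a probe set was read from the prefix of its listed accession. Which part of the transcript that target covers was not given. Promoter windows were found for 5 of the 6 genes, all but Neb. Coordinates are given for these windows only.

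With limma 3.58.1 in R 4.3.3 (lmFit, eBayes, two-sided, Benjamini-Hochberg, threshold 0.05), 3 mutant arrays were compared with 4 wild-type arrays over 45037 probe sets (64 controls left out), over 18193 genes (mean of a gene's probe sets in its highest class), and over 25762 within-array differences between a probe set and the mean of its gene's other probe sets. In a gene with 2 probe sets these differences mirror each other. Over all features, limma called 0 in each fit, with 890, 253 and 597 at an unadjusted p under 0.05. Correlations used exact two-sided permutation over the pairings of 7 arrays. The fits were tested on simulated data. The number of arrays limits the precision.

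The titles share replicate numbers between groups, and nothing in the labels ties same-numbered mice together. Named genes are all member probe sets, the 3 genes of smallest p in each partner list, and the 3 genes most like each member. The members and lists were chosen with earlier results of these data known. A planned look at genes with long proteins was not analysed here, since it needs protein lengths. Alternatives were quantile normalization, age as a covariate, a replicate block, a variance trend, filters on dim probe sets, other summaries and leaving out each array.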

Additional observations from a re-analysis of the deposited data

Results flagged for a closer look

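In 4 wild-type groups of values out of 42 examined, 1 array lay far from the other 3 by Dixon's ratio at the 95% level, where chance flags about 1 group in 20. Wild-type replicate 3 was low in Ttn 1444638_at, at -1.40, and in the Ttn gene value, at -1.26. In the same array Ttn 1446450_at stood high above the gene's other probe sets, at 1.11. That gene value and these other probe sets both include 1444638_at, so the flags of this array are not independent. The count of flags can therefore not be weighed against the chance rate. Wild-type replicate 4 was high in Utrn 1426892_at minus its other probe sets, at 0.56. The controls and marker means of wild-type replicate 3 are given in the report, and their part in these values was not tested.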

How the results depend on the processing

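Across all alternatives limma called 0 probe sets, 0 genes and 0 within-gene differences. The differences of Ttn 1444083_at, Ttn 1444638_at and Ryr1 1457347_at stayed positive under all of them. For Ttn 1444638_at and Ryr1 1457347_at, whose groups did not overlap, leaving out an array could not change the sign. Of 206 values under alternatives other than leaving out 1 array, 15 changed sign and 1 count moved. With age as a covariate these were Neb 1435355_at and the Neb gene value (0.022 for both), Dmd 1448665_at (0.10) and Utrn 1452222_at (-0.0042). With quantile normalization they were Dmd 1417307_at (-0.053), Cacna1s 1420442_at and its gene value (-0.07 for both) and Utrn 1452222_at against its gene's other probe sets (0.0092), and 3 instead of 5 of the 25 probe set pairs kept an adjusted p under 0.05. With a replicate block they were Neb 1435355_at and its gene value (0.063 for both), Dmd 1448665_at (0.12), Utrn 1452222_at (-0.074), Utrn 1426892_at (0.077) and Utrn 1426892_at against the others (0.046). Wild-type replicate 4 is the only array of its number, so the block takes it out of the comparison. The differences with a block therefore equal those without that array, and these sign changes are not separate from leaving it out. With the median of the other probe sets, Ttn 1431928_at stood at 0.012 against the others. Same-numbered arrays did not deviate together (r = -0.48, -0.31 and 0.15), so the numbers were not taken as pairs.

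Leaving out each array in turn changed sign in these ranges: Ttn 1427445_a_at -0.12 to 0.38, 1427446_s_at -0.15 to 0.35 and 1431928_at -0.051 to 0.39, Neb 1435355_at and its gene value -0.29 to 0.11, Ryr1 1427306_at -0.14 to 0.16, Cacna1s 1420442_at and its gene value -0.18 to 0.18, Dmd 1417307_at -0.24 to 0.27, 1448665_at -0.42 to 0.33, 1430320_at -0.026 to 0.078 and its gene value -0.15 to 0.55, and Utrn 1452222_at -0.074 to 0.092 and 1426892_at -0.082 to 0.077. Against the gene's other probe sets the ranges were -0.57 to 0.15 for Dmd 1430320_at, -0.18 to 0.11 for Utrn 1452222_at and -0.15 to 0.046 for Utrn 1426892_at. The count of called probe set pairs ran from 0 to 3 with 6 arrays, which allow fewer pairings, and was 0 without any 1 mutant array or without wild-type replicate 3. The causes were not tested. The look at genes with long proteins was not run.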
